A study of Mus musculus with 6 samples.

Results

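The 55 cell cycle genes described here are a list of genes of DNA replication, of mitosis and of the entry into the cycle. The list was chosen with earlier results of these data known, so its counts beside all genes are descriptions. Of the 55, 53 could be read among the 16420 genes measured on the arrays. A gene was read where its probe was well above background on at least 2 of the 6 arrays, and 51 of the 53 were above background on all 6. They were divided by role into 21 S phase genes, of which 20 were measured, 30 mitotic genes, of which 29 were measured, and 4 cyclins and kinases of G1, all measured. Ccne2 (cyclin E2) and Cenpf (a kinetochore protein) were well above background on 0 arrays and are not described further. The cells were CD45-negative cells of mouse lung, the preparation left when leukocytes are removed with magnetic beads against CD45, from mice 7 to 9 weeks old at the start. Lungs came from Ccr2KO mice, which lack the chemokine receptor that recruits monocytes, on day 28 or day 40 after silica aspiration or untreated (day 0), and from WT C57BL/6J mice on the same days. The strain of the knockouts is labelled B6.129S4-Ccr2tm1Ifc/J. Ccr2 itself was at -5.07, -1.51 and -3.64 on the 3 days in Ccr2KO cells and at 0.09, 1.38 and -1.70 in WT cells, lower in Ccr2KO on each day (log2 signal over the 75th percentile of the array). Each group was 1 RNA pooled from 3 biological replicates and hybridised to 1 array, so no spread between animals was measured and all p-values rest on what the model of day and genotype left unexplained over 6 arrays.

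A dividing cell copies its DNA in S phase and parts the copies in mitosis, and the genes for each step are switched on in turn. In G1, D-type cyclins with CDK4 start the release of E2F transcription factors from the retinoblastoma proteins, and E2F with cyclin E and CDK2 then turns on the replication genes. Genes of mitosis follow later, through MYBL2 and FOXM1 acting with the MuvB complex at short promoter elements, while the DREAM complex and CDK inhibitors such as p21 hold the cycle genes down in resting cells. Most cells of a resting adult lung are outside the cycle, and injury brings epithelial, endothelial and mesenchymal cells into it. In a bulk preparation, more cycling cells and more of a transcript per cell cannot be told apart, and the phase of no cell was measured.

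The promoters are shown first, since the S phase and mitotic genes differ in them in a way the list did not use. RefSeq promoter windows (GRCm38.p6, 250 bases before to 50 after the start, on the strand of the gene) matched 44 of the 55 genes, 17 of S phase, 25 of mitosis and 2 of G1. Where a gene had several starts, the window with the most kinds of motif was read, and among equals the one with the most matches. The rule was the same for these genes and for all 27025 genes of the table. An E2F site, searched as TTTGGCGC, TTTCCCGC, TTTGCCGC or TTTCGCGC on both strands, was found in 7 of 17 S phase windows (41.2%), in 1 of 25 mitotic windows (4%) and in 2.5% of all genes. The cell cycle homology region, the element bound by MuvB, was searched as TTTGAA or TTCGAA on both strands and was found in 4 of 17 S phase windows (23.5%), in 18 of 25 mitotic windows (72%) and in 21% of all genes. CCAAT boxes, bound by NF-Y, were in 12 of 17 S phase windows (70.6%), in 20 of 25 mitotic windows (80%) and in 40.6% of all genes. Both a CCAAT box and a homology region were present in 17 of 25 mitotic windows (68%), in 4 of 17 S phase windows (23.5%) and in 8.61% of all genes. A match is a run of letters and not a measured binding site, and none of these counts was tested.

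For each phase the 3 measured genes with the most kinds of motif are printed, then by most matches and by the alphabet. They were thus picked as the richest windows and do not stand for the typical one. Windows of 3 helicase genes are given for S phase, with capitals marking every match to an E2F site, homology region or CCAAT box. Mcm7 (chr5:138171834-138172133, minus strand), Mcm3 (chr1:20820263-20820562, minus strand) and Mcm5 (chr8:75109259-75109558, plus strand) hold 2 E2F matches and 3 CCAAT boxes each, and Mcm7 also holds 1 homology region. In Mcm7 the run TTTCGCGCCAAT is an E2F match that overlaps a CCAAT box, and in Mcm5 the 2 E2F matches overlap each other in TTTCGCGCCAAA.
Mcm7: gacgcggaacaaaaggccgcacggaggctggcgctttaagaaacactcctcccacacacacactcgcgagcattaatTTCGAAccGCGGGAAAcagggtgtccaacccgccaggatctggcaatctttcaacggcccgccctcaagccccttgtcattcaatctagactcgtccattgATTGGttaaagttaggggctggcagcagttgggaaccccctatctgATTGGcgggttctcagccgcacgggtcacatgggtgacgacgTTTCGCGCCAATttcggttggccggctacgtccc
Mcm3: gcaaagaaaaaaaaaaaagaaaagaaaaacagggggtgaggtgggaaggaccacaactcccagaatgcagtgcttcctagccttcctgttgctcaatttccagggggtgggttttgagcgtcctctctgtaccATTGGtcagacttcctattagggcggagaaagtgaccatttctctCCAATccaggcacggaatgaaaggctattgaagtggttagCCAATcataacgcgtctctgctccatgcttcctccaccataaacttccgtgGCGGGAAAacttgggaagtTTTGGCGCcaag
Mcm5: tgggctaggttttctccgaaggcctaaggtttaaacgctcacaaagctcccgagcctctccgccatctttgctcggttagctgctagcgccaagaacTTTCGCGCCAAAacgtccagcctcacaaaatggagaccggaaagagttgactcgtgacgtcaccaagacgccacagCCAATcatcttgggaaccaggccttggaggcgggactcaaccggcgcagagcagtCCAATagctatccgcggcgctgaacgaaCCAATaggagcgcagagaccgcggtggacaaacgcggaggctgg

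Windows of 3 mitotic genes, picked by the same rule, are given in the same notation. Cdk1 (chr10:69352863-69353162, minus strand) holds 3 CCAAT boxes and 2 homology regions and is the mitotic window with an E2F match. Top2a (chr11:99024140-99024439, minus strand) holds 6 CCAAT boxes and 4 homology region matches, the palindrome TTCGAA counting once. Ube2c (chr2:164769679-164769978, plus strand) holds 6 CCAAT boxes, of which a pair overlaps in CCAATTGG, and 1 homology region.
Cdk1: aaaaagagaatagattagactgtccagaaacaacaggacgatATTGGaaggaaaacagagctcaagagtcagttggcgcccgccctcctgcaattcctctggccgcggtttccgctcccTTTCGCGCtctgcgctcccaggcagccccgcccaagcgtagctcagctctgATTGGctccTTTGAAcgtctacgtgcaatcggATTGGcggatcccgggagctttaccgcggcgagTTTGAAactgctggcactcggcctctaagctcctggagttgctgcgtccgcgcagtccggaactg
Top2a: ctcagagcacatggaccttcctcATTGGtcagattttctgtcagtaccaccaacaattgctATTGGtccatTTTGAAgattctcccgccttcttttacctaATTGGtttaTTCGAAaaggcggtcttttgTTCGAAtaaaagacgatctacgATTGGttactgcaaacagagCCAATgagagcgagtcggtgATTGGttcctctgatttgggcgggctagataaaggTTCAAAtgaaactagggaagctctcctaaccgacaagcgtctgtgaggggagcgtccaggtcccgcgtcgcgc
Ube2c: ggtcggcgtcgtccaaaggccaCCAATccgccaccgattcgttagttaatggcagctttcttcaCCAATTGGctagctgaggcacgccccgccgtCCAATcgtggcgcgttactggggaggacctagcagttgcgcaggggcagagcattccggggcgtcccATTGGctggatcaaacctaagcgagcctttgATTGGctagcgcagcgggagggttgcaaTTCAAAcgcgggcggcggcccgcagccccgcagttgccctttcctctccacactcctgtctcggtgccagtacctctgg

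After silica, cell cycle genes were higher in the lung preparations of both genotypes, with larger values for mitotic than for S phase genes. Comparing days 28 and 40 with untreated cells over both genotypes, 37 of the 53 genes rose and 0 fell (limma adjusted p below 0.05 over 16420 genes), against 10.5% of all genes that rose. Of the mitotic genes 27 of 29 rose, with a median log2 difference of 1.83 over all 29. Of the S phase genes 10 of 20 rose, with a median of 0.57, and of the G1 cyclins and kinases 0 of 4, with a median of 0.39. The median over all genes was -0.01. Aurkb and Ttk, 2 of the mitotic genes, were not well above background on either untreated array and entered the test through silica arrays alone. Without them, 36 of the 51 genes above background on all 6 arrays rose (26 of 27 mitotic), against 9.91% of the 14926 such genes. All 4 silica arrays were at least 2-fold above the untreated array of their own genotype for 27 of 53 genes, 22 mitotic (Aurkb among them) and 5 S phase, against 3.38% of all genes. All 4 silica arrays lay above both untreated arrays for 46 of the 53 genes (28 of 29 mitotic, 15 of 20 S phase and 3 of 4 G1 genes), against 21.1% of all genes. The phases were not compared by a test, since genes of a list are not replicates. Over the same range of array signal, a mean level between -4 and 0, the median silica difference was 1.91 over 18 mitotic genes and 0.79 over 10 S phase genes.

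**Figure D1:**
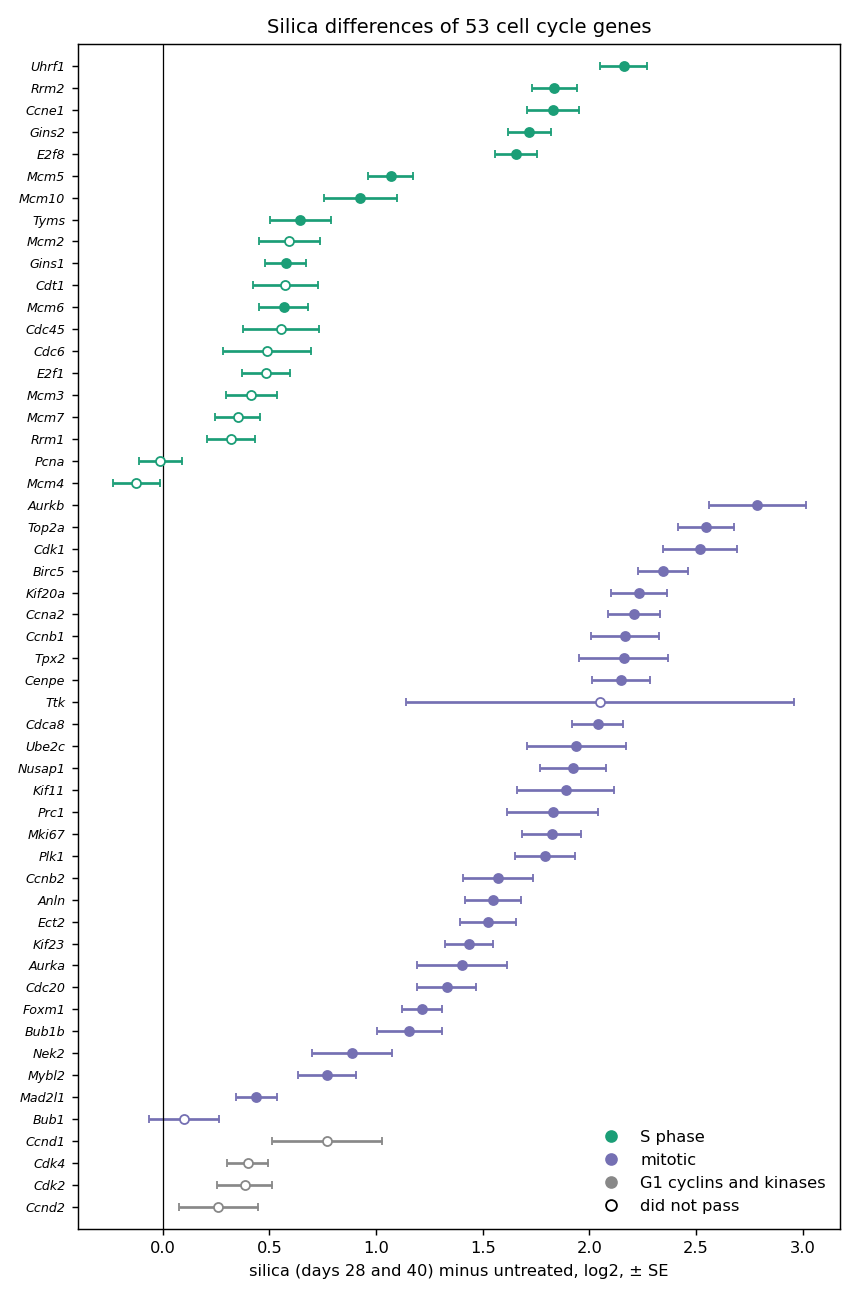
Silica minus untreated difference of the 53 measured cell cycle genes, on the log2 scale, as estimate and standard error from the fit of day and genotype over 6 arrays. Filled points passed the test. Mitotic genes (middle block) had a median of 1.83, S phase genes (top block) 0.57 and the 4 G1 genes (bottom block) 0.39.

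Levels are given as log2 of the signal over the 75th percentile of signals on that array, which allows one gene to be compared between arrays but not different genes on one array. The median over the S phase genes was -0.81 untreated, 0.45 on day 28 and 0.08 on day 40 in Ccr2KO cells, and -1.06, 0.52 and -0.06 on those days in WT cells. Over the mitotic genes it was -2.42 untreated, -0.09 on day 28 and -0.71 on day 40 in Ccr2KO cells, and -2.57, -0.52 and -0.64 in WT cells. Both medians were thus lowest on the 2 untreated arrays, and the mitotic median was highest on the Ccr2KO day 28 array.

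**Figure D2:**
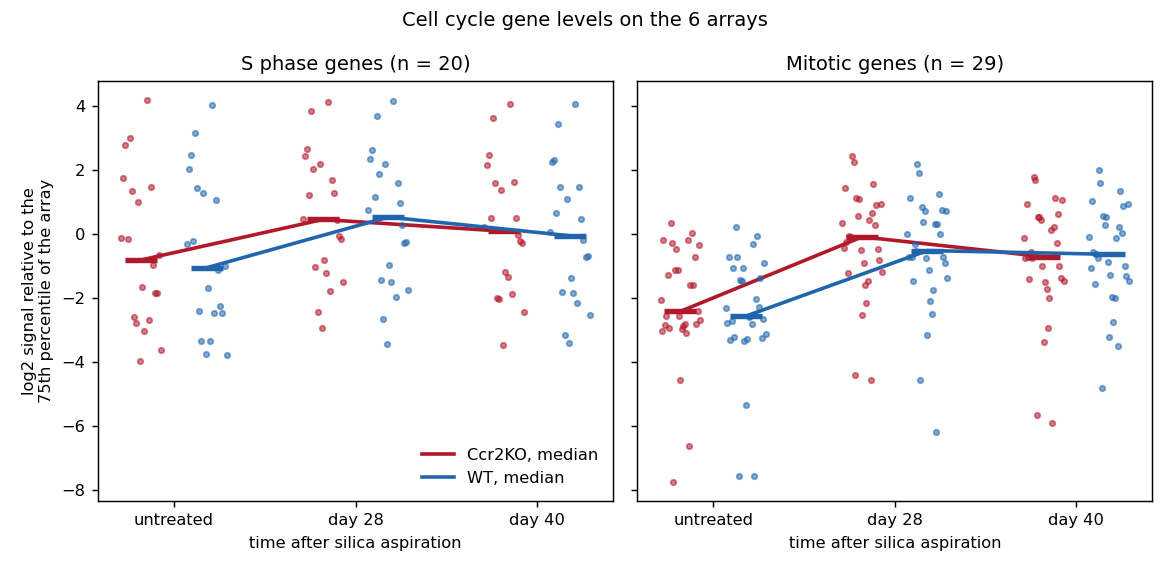
Levels of the 20 S phase and 29 mitotic genes on each array, log2 scale over the 75th percentile of the array. Points are genes, bars and lines the median of each array, with Ccr2KO left of WT. The mitotic median was -2.42 in untreated and -0.09 in day 28 Ccr2KO cells, and -2.57 and -0.52 in WT cells.

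The replication helicase is the ring of MCM2 to MCM7 that CDC6 and CDT1 load onto DNA and that CDC45 and the GINS complex activate. Of these 12 genes 5 rose after silica, all but 1 had a positive difference, and their median was 0.57. Gins2, a GINS subunit, was at -3.04 untreated, -1.21 on day 28 and -1.34 on day 40 in Ccr2KO cells, and at -3.34, -1.52 and -1.84 in WT cells. All 4 silica arrays lay above both untreated arrays, and Gins2 rose 3.29-fold (log2 1.72 ± 0.10 SE, adjusted p = 0.00764). Mcm5, of the helicase ring, was at -0.15, 1.23 and 0.51 on the 3 days in Ccr2KO cells and at -0.22, 1.14 and 0.65 in WT cells. Its silica and untreated arrays did not overlap either, and it rose 2.1-fold (log2 1.07 ± 0.11, adjusted p = 0.0113). Mcm10, which helps the helicase start, rose by 0.93 ± 0.17 (adjusted p = 0.0332), Gins1 by 0.58 ± 0.10 (adjusted p = 0.0278) and Mcm6 by 0.57 ± 0.12 (adjusted p = 0.0421).

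The other 7 did not pass. Mcm2 (0.59), Cdt1 (0.57), Cdc45 (0.55), Cdc6 (0.49), Mcm3 (0.41) and Mcm7 (0.35) had positive log2 differences with adjusted p-values between 0.0588 and 0.172. Mcm4 was the exception in direction, at 2.79, 2.64 and 2.45 on the 3 days in Ccr2KO cells and 2.46, 2.62 and 2.30 in WT cells, with a difference of -0.12 ± 0.11 (adjusted p = 0.455). Its day 28 arrays lay between the 2 untreated ones and its day 40 arrays below both. Members of a single hexamer therefore differed in their silica values, Mcm5 at 1.07 and Mcm4 at -0.12, although the difference between them was not tested. The fainter second probe of Cdc6, the loading factor, gave 0.84 where the probe used gave 0.49.

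Genes of the fork and of nucleotide supply were split in the same way. Uhrf1, which copies DNA methylation to the new strand, was at -1.83, 0.45 and -0.04 (untreated, day 28, day 40) in Ccr2KO cells and at -2.24, 0.28 and -0.19 in WT cells. It rose 4.47-fold (log2 2.16 ± 0.11, adjusted p = 0.00753), the largest difference among the S phase genes by its brightest probe, with 0.97 by a much fainter probe. Rrm2, the regulated subunit of ribonucleotide reductase, was at -0.96, 1.27 and 0.51 in Ccr2KO cells and at -1.12, 0.95 and 0.45 in WT cells, and rose 3.57-fold (log2 1.83 ± 0.11, adjusted p = 0.00764). For both genes every silica array lay at least 1.4 log2 units above the untreated array of its genotype. The large subunit of the same enzyme, Rrm1, had a difference of 0.32 ± 0.11 (adjusted p = 0.123). Tyms, thymidylate synthase, rose by 0.65 ± 0.14 (adjusted p = 0.0482).

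Pcna, the sliding clamp of DNA polymerase and a common marker of proliferation, was at 4.17, 4.10 and 4.04 in Ccr2KO cells and at 4.03, 4.14 and 4.06 in WT cells. These 6 levels lay within 0.2 log2 units of each other and the groups overlapped, with a difference of -0.01 ± 0.10 (adjusted p = 0.945). Of the S phase genes, Pcna and Mcm4 had a difference at or below 0. The probe was the only one of Pcna that was kept.

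Cyclin E and the E2F factors mark the passage from G1 into S. Ccne1 (cyclin E1) was at -1.86, -0.07 and -0.23 in Ccr2KO cells and at -2.46, -0.30 and -0.74 in WT cells, and rose 3.55-fold (log2 1.83 ± 0.12, adjusted p = 0.00774), with 0.92 by a much fainter probe. E2f8, an atypical E2F that represses E2F targets late in S phase, was at -3.63, -1.51 and -2.45 in Ccr2KO cells and at -3.79, -1.74 and -2.52 in WT cells, and rose 3.15-fold (log2 1.66 ± 0.10, adjusted p = 0.00764). Both were above their untreated levels on all 4 silica arrays. E2f1, the activating E2F, had 0.48 ± 0.11 and did not pass over both days (adjusted p = 0.0547), with 0.62 ± 0.13 and an adjusted p of 0.0474 on day 28 alone.

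None of the 4 cyclins and kinases of G1 passed. Cdk4, the partner of D cyclins, had a difference of 0.40 ± 0.10 (adjusted p = 0.0605) and Cdk2, the partner of cyclins E and A, 0.38 ± 0.13 (adjusted p = 0.112). Ccnd1 (cyclin D1) was at 4.83, 5.14 and 5.07 in Ccr2KO cells and at 4.08, 5.37 and 5.33 in WT cells, so both silica arrays were above the untreated array in each genotype, by 0.31 and 0.24 in Ccr2KO and by 1.28 and 1.25 in WT cells. Its silica response in Ccr2KO minus that in WT was -0.99 ± 0.22 (unadjusted p = 0.011, adjusted p = 1 over all genes). Ccnd2 (cyclin D2) was at 3.21, 3.22 and 3.09 in Ccr2KO cells and at 2.60, 3.32 and 3.05 in WT cells. In both D cyclins the array that stood lowest was WT untreated, and without it the silica difference of Ccnd2 was -0.06, against 0.26 with all arrays. Ccnd1 had 0.77 ± 0.26 (adjusted p = 0.112) with all arrays, 0.27 without WT untreated and 1.27 without Ccr2KO untreated, and passed in the last of these (adjusted p = 0.0293).

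The mitotic genes that drive entry into mitosis all rose. Cdk1, the mitotic kinase, was at -2.84 untreated, -0.24 on day 28 and -0.71 on day 40 in Ccr2KO cells, and at -3.32, -0.71 and -0.58 in WT cells. All 4 silica arrays lay more than 2 log2 units above the untreated ones, and Cdk1 rose 5.74-fold (log2 2.52 ± 0.17, adjusted p = 0.00776). Ccna2 (cyclin A2), which serves S phase and mitotic entry, rose by 2.21 ± 0.12, and the mitotic cyclins Ccnb1 by 2.17 ± 0.16 and Ccnb2 by 1.57 ± 0.16 (adjusted p between 0.00764 and 0.012). The factors that switch these genes on rose too, Foxm1 by 1.21 ± 0.09 (adjusted p = 0.00858, and 0.63 by a fainter probe) and Mybl2 by 0.77 ± 0.14 (adjusted p = 0.0303).

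Genes of chromosome structure and of the chromosomal passenger complex had the highest medians of the roles, 2.18 and 2.34 (2.04 for the passenger complex with Aurkb at the lower bound given below for it). Top2a, the topoisomerase that untangles sister chromosomes, was at -2.94, -0.09 and -0.76 in Ccr2KO cells and at -3.21, -0.52 and -0.74 in WT cells, and rose 5.84-fold (log2 2.55 ± 0.13, adjusted p = 0.00753). Mki67, the Ki-67 antigen that coats mitotic chromosomes, was at 0.32, 2.43 and 1.77 in Ccr2KO cells and at 0.21, 2.17 and 1.99 in WT cells, and rose 3.54-fold (log2 1.82 ± 0.14, adjusted p = 0.00858). Birc5 (survivin), a passenger subunit, was at -0.28, 2.25 and 1.67 in Ccr2KO cells and at -0.71, 1.89 and 1.59 in WT cells, and rose 5.08-fold (log2 2.34 ± 0.12, adjusted p = 0.00753). In each of these 3 genes the lowest silica array stood over 1.4 log2 units above the higher untreated array, and the Ccr2KO day 28 array was the highest of the 6.

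Cdca8 (borealin), another passenger subunit, rose by 2.04 ± 0.12 (adjusted p = 0.00764). Aurkb, the kinase of the complex, passed as well (adjusted p = 0.00898) but was well above background only on the 2 day 28 arrays. Its mean level was -4.86 over the 4 silica arrays and -7.65 over the 2 untreated arrays, where it was not well above background, so its change is given as at least 1.69-fold. That bound sets the mean of all 4 silica arrays against the lowest signal of probes well above background on the untreated arrays.

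All 6 genes of the spindle rose, with a median of 1.84. Tpx2, which builds microtubules around chromosomes, rose by 2.16 ± 0.21, Nusap1, which bundles them, by 1.92 ± 0.16, the motor Kif11 by 1.89 ± 0.23 and the kinase Plk1 by 1.79 ± 0.14 (adjusted p between 0.00882 and 0.0151). The fainter probe of Tpx2 gave 0.66. Nek2, a centrosome kinase, rose by 0.89 ± 0.19 (adjusted p = 0.0444). Aurka, the spindle pole kinase, was at -0.47, 0.55 and 0.52 in Ccr2KO cells and at -1.47, 0.36 and 0.28 in WT cells, and rose by 1.40 ± 0.21 (adjusted p = 0.0224). As for cyclin D1, WT untreated was its lowest array, and its response in Ccr2KO minus that in WT was -0.78 ± 0.22 (unadjusted p = 0.0241, adjusted p = 1).

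Of the 7 genes of the checkpoint, kinetochore and anaphase 5 rose. The kinetochore motor Cenpe rose by 2.148 ± 0.14, Ube2c, which loads ubiquitin for the anaphase promoting complex, by 1.94 ± 0.23, its activator Cdc20 by 1.33 ± 0.14, the checkpoint kinase Bub1b by 1.16 ± 0.15 and the checkpoint protein Mad2l1 by 0.44 ± 0.10 (adjusted p between 0.00764 and 0.0488). Bub1, a related checkpoint kinase, was at -2.82, -2.15 and -2.95 in Ccr2KO cells and at -2.57, -2.50 and -2.77 in WT cells. It was the mitotic gene whose silica and untreated arrays overlapped, with a difference of 0.10 ± 0.16 (adjusted p = 0.69). Ttk, the checkpoint kinase MPS1, was at -6.61, -4.56 and -5.91 in Ccr2KO cells and at -7.57, -6.17 and -3.51 in WT cells, and was well above background only on the Ccr2KO day 28 and WT day 40 arrays. Its mean level was -5.04 over the 4 silica arrays and -7.09 over the 2 untreated arrays, a change of at least 1.498-fold by the bound used for Aurkb, and it did not pass (adjusted p = 0.184).

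All 5 genes of cytokinesis, the parting of the daughter cells, rose, with a median of 1.55. Kif20a, a motor of the central spindle, rose by 2.23 ± 0.13, Prc1, which bundles the central spindle, by 1.83 ± 0.21, the contractile ring protein Anln by 1.55 ± 0.13, Ect2, which acts at the cleavage site, by 1.52 ± 0.13 and the motor Kif23 by 1.44 ± 0.11 (adjusted p between 0.00764 and 0.0145). Each of the 5 was at least 2-fold above its own untreated array on all 4 silica arrays.

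**Figure D3:**
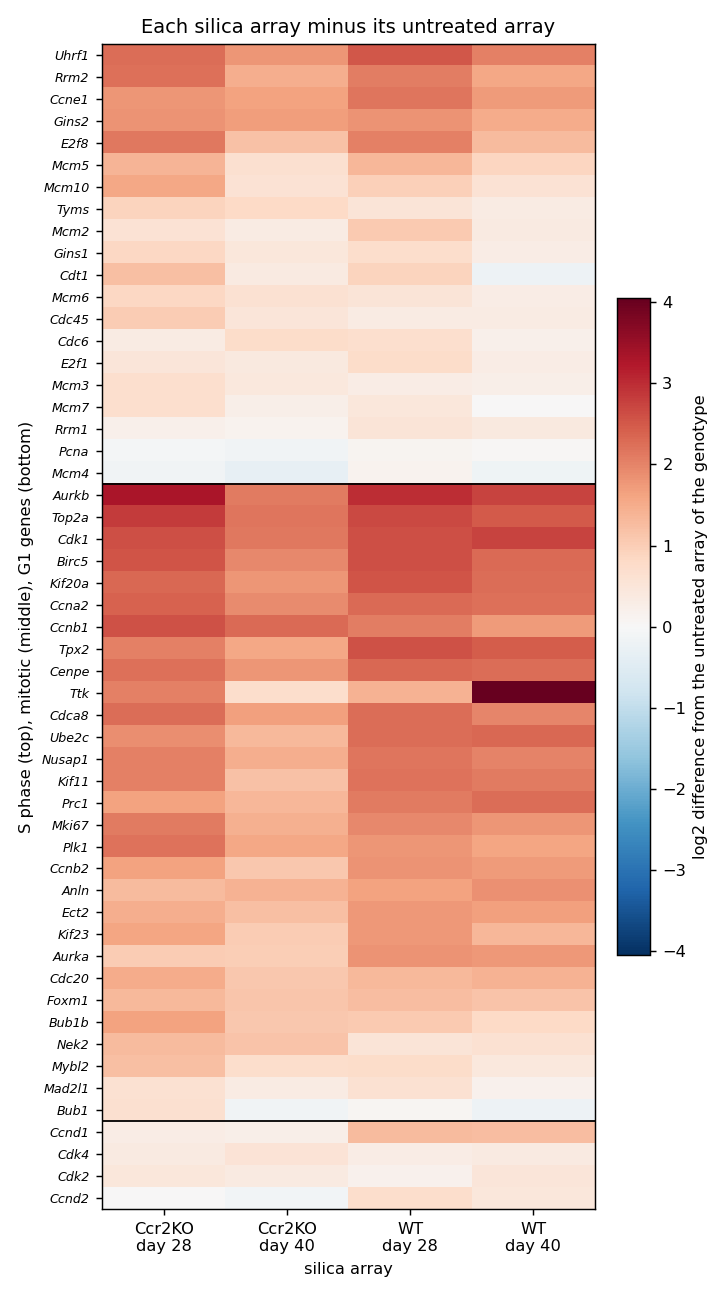
Each silica array minus the untreated array of its genotype, for the 53 measured genes on the log2 scale, Ccr2KO columns left of WT. The median over mitotic genes was 2.04 in Ccr2KO day 28, 1.34 in Ccr2KO day 40, 1.96 in WT day 28 and 1.84 in WT day 40 cells. Mcm4, Pcna and Bub1 are the pale rows of the upper blocks.

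Silica differences of genes with and without a promoter match covered overlapping ranges. Among mitotic genes with a window, the median log2 difference was 1.79 over the 17 measured genes with a homology region (0.10 to 2.55) and 1.92 over the 7 without one (0.44 to 2.34). S phase genes with an E2F match had a median of 0.57 over 7 genes (0.35 to 2.16), and those without one 0.62 over 10 genes (-0.01 to 1.83).

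The calls rested on a thin design. The silica count was 0 of 53 without the Ccr2KO day 28 array, 0 without the WT day 28 array and 0 when the slide row was added to the model, fits that leave 1 residual degree of freedom and in which 0 of all genes passed, while the mitotic median stayed between 1.59 and 2.05 over these fits and the other omissions of an array. Within slide row 1, which held both untreated arrays and Ccr2KO day 28, Ccr2KO day 28 exceeded Ccr2KO untreated by a median of 2.04 over mitotic and 0.88 over S phase genes. Slide row 2 held WT day 28, WT day 40 and Ccr2KO day 40. Silica and slide row therefore cannot be told apart in WT cells, nor on day 40 in Ccr2KO cells. Differences between the genotypes in silica response, such as those of Ccnd1, Aurka and Cdkn1a, share this uneven layout.

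On day 28, 38 of the 53 genes rose against untreated cells (26 mitotic and 12 S phase genes), against 9.2% of all genes, with medians of 1.996 over mitotic and 0.75 over S phase genes. On day 40, 30 of 53 rose (24 mitotic and 6 S phase genes), against 8.46% of all genes, with medians of 1.66 and 0.44. Mcm2, Cdt1 and E2f1 passed on day 28 and neither on day 40 nor over both days. Cdt1, the licensing factor, was at 0.99, 2.19 and 1.37 in Ccr2KO cells and at 1.28, 2.19 and 1.08 in WT cells. On day 28 Cdt1 rose by 1.06 ± 0.17 (adjusted p = 0.0299), and on day 40 its difference from untreated cells was 0.09 (adjusted p = 0.746). The day 40 count was 11 without the WT day 40 array, and it was 0 without Ccr2KO day 40 and without either day 28 array.

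Day 28 lay above day 40 in both genotypes for 42 of the 53 genes (18 of 20 S phase and 22 of 29 mitotic genes), against 20.2% of all genes. Tested directly, 1 of 53 genes was lower on day 40 than on day 28, against 2.55% of all genes, and 16 of 53 had an unadjusted p below 0.05 (2645 of all 16420 genes). That gene was E2f8, with -0.86 ± 0.11 (adjusted p = 0.0464). Its difference lay between -0.80 and -0.92 when each array was left out, with no call in any of these fits. Cdt1 had -0.97 ± 0.17 (adjusted p = 0.0984), Rrm2 -0.63 ± 0.12 (adjusted p = 0.113), Mcm5 -0.61 ± 0.12 (adjusted p = 0.122), Top2a -0.44 ± 0.15 (adjusted p = 0.289) and Cdk1 -0.17 ± 0.20 (adjusted p = 0.706). The S phase medians of the single pairs were -0.25 in Ccr2KO and -0.41 in WT cells, and the mitotic medians -0.52 in Ccr2KO and -0.14 in WT cells.

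Averaged over the 3 days, 0 of 53 genes differed between Ccr2KO and WT cells, against 0% of all genes. Of the 53, 3 had an unadjusted p below 0.05, a smaller share than among all genes (1525 of 16420). These 3 were Cdc6 (0.63 ± 0.20, adjusted p = 0.503), Ccne1 (0.45 ± 0.11, adjusted p = 0.468) and Gins2 (0.37 ± 0.10, adjusted p = 0.47), all S phase genes and all higher in Ccr2KO. The test of a different silica response in the genotypes called 0 of 53, against 0% of all genes. Ccnd1 and Aurka, given above, had an unadjusted p below 0.05. They are 2 of 53, about the same share as among all genes (619 of 16420). In well-measured mitotic genes the interval was wide: Top2a had -0.07 ± 0.48 and Cdk1 -0.30 ± 0.37 (SE).

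By single days, without replicates, most of the genes were higher in Ccr2KO than in WT cells on day 28. On that day the Ccr2KO array lay in slide row 1 and the WT array in slide row 2, so genotype and slide row cannot be told apart. The untreated pair shared row 1 and the day 40 pair row 2. All 29 mitotic and 18 of 20 S phase genes were higher on the Ccr2KO than on the WT day 28 array, 49 of 53 in all, against 48% of all genes. The mitotic median of Ccr2KO minus WT was 0.28 on that day, 0.30 in untreated cells (22 of 29 higher) and -0.03 on day 40 (9 of 29 higher). For S phase genes it was 0.15 on each of the 3 days. The Ccr2KO day 28 array was the highest of the 6 for 43 of 53 genes (27 of 29 mitotic and 16 of 20 S phase), as it was for 6.71% of all genes. The genes share cells, RNA and array, so these counts describe 1 pair of arrays, and they were not tested.

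**Figure D4:**
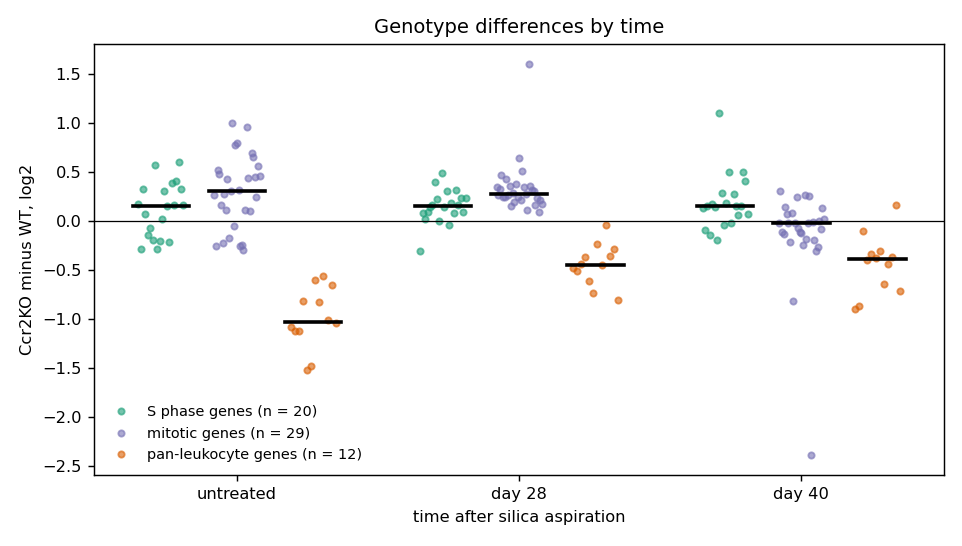
Ccr2KO minus WT level of each gene on each day, log2, with the median as a bar. Mitotic genes lay above 0 on day 28 (all 29) and around 0 on day 40 (9 of 29 above). All 12 pan-leukocyte genes lay below 0 untreated and on day 28 and 11 of 12 on day 40, with medians of -1.03, -0.45 and -0.39 on the 3 days. The day 28 arrays of the genotypes lay in different slide rows.

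Leukocyte genes were read in these CD45-depleted cells and moved with the days. Ptprc, which encodes CD45, was above background on all 6 arrays, and so were all 12 pan-leukocyte genes, whose median level was 2.19 untreated, 3.72 on day 28 and 1.53 on day 40 in Ccr2KO cells, and 3.46, 4.42 and 2.07 in WT cells. Their summed signal ranged from 49.3 to 221 in Ccr2KO cells and from 64.2 to 303 in WT cells, in multiples of the 75th percentile. On day 28, 11 of 12 rose with the cell cycle genes, against 9.2% of all genes, with a median of 1.54 over the 12. On day 40, 0 of 12 rose and 3 fell, against 8.46% and 6.72% of all genes. Their median was then -0.73, and the mitotic median was 1.66 above untreated on the same arrays. All 12 were lower in Ccr2KO than in WT cells on day 28, where all 29 mitotic genes and 48% of all genes were higher. Tested directly, 11 of 12 were lower on day 40 than on day 28, against 2.55% of all genes. All 12 lay lower on day 40 in both genotypes, as did 20.2% of all genes.

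Other cell types moved in several directions. Of the 4 genes of neutrophil precursors (Mpo, Elane, Prtn3 and Ctsg), which divide in marrow, 3 rose after silica, with a median of 2.01. On day 28, 3 of the 4 rose (median 2.59), and on day 40, 2 of the 4 (median 1.49), against 9.2% and 8.46% of all genes. All 4 were higher in Ccr2KO than in WT cells on day 28 (median 1.41), as were 48% of all genes. The median level of the 4 was -2.73, 1.002 and -0.51 in Ccr2KO cells and -4.33, -0.902 and -2.04 in WT cells. The summed signal was 7.49, 15.2 and 11.2 in Ccr2KO cells and 6.99, 8.54 and 18 in WT cells. Most of that sum came from the brightest gene, at 2.83, 3.43 and 3.26 in Ccr2KO cells and 2.78, 2.87 and 4.12 in WT cells. That gene had the smallest silica difference of the 4, 0.62, so the sum does not describe the genes that rose. On day 28, 5 of 6 T cell, 2 of 6 B and plasma cell and 1 of 7 macrophage genes rose, against 9.2% of all genes. On day 40, 0 T cell, 0 B and plasma cell and 1 macrophage gene rose, against 8.46% of all genes, and 1, 3 and 2 of them fell, against 6.72%. Of 3 measured genes of germinal centre B cells 1 rose after silica. All 3 measured erythroid genes fell, with a median of -2.41. Of 4 fibroblast genes 2 rose and 1 fell, and 1 of 4 endothelial and 1 of 4 epithelial genes fell. For these silica counts, and those of the neutrophil precursor and germinal centre genes, 10.5% of all genes rose and 9.33% fell. Which cells held the cell cycle transcripts was not tested.

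Further genes of the cycle were counted as lists, in the silica comparison in which 10.5% of all genes rose and 9.33% fell. Of 27 other S phase genes 8 rose and 0 fell, with a median of 0.33. The largest differences among those that passed were in the checkpoint adaptor Clspn (at least 2.69-fold, adjusted p = 0.0145), the nuclease Exo1 (2.19 ± 0.21, adjusted p = 0.0105), Dscc1 of the clamp loader (1.86 ± 0.31, adjusted p = 0.0268) and Dtl, which marks CDT1 for destruction (1.79 ± 0.11, adjusted p = 0.00764). Clspn was not well above background on either untreated array, so its change is a bound. It entered the test through silica arrays alone and is counted among the 8. Of 28 other G2 and M genes 14 rose and 1 fell (the histone chaperone Anp32e, -0.48, named after its value was seen), with a median of 1.02. Of these 28, 7 were at least 2-fold above their own untreated array on all 4 silica arrays, against 3.38% of all genes. Those that passed with the largest differences were the kinetochore gene Nuf2 (3.12 ± 0.15, adjusted p = 0.00753), the motor Kif2c (at least 3.04-fold, adjusted p = 0.00898), the spindle protein gene Dlgap5 (at least 3.53-fold, adjusted p = 0.0105) and Cdca3 (1.80 ± 0.11, adjusted p = 0.00764). Kif2c and Dlgap5 were well above background on all 4 silica arrays and on 0 untreated arrays, and Nuf2 on all but WT untreated. Kif2c and Dlgap5 thus entered the test through silica arrays alone, and the 14 that rose and the 7 at least 2-fold above include them. Of 7 other G1 genes 2 rose, the repressor E2f7 by 1.57 ± 0.16 (adjusted p = 0.0121, and by 0.89 with the mean of its 2 probes) and the activator E2f3 by 0.59 ± 0.11 (adjusted p = 0.0316).

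The 14 brakes of the cycle, CDK inhibitors, retinoblastoma proteins and inhibitors of mitotic entry, included 1 that rose, 2 that fell and 11 that did not pass, with a median of -0.05, where 10.5% of all genes rose and 9.33% fell. Cdkn2a, which encodes p16 and p19ARF, was at -1.04 untreated, 0.92 on day 28 and 1.97 on day 40 in Ccr2KO cells, and at -2.62, -1.32 and -0.10 in WT cells. It stood higher at each later day. It was higher in Ccr2KO than in WT cells on all 3 days, as were 19.6% of all genes, and the genotypes did not pass as different (1.96 ± 0.16, adjusted p = 0.381). Cdkn2a rose by 2.20 ± 0.17 after silica (log2, adjusted p = 0.00878). Cdkn1c (p57), at 2.67, 1.47 and 1.92 in Ccr2KO cells and 2.63, 1.33 and 1.72 in WT cells, fell by 1.04 (± 0.10, adjusted p = 0.0104). Cdkn2b (p15), at 2.85, 1.88 and 1.95 in Ccr2KO cells and 2.55, 1.47 and 1.49 in WT cells, fell by 1.002 (± 0.10, adjusted p = 0.0107). In both, all 4 silica arrays lay below the 2 untreated ones, as in 24% of all genes.

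Cdkn1a, which encodes the p53 target p21, was at 4.57, 3.56 and 3.72 in Ccr2KO cells and at 2.99, 4.10 and 4.08 in WT cells. Both silica arrays were about 1 log2 unit below untreated in Ccr2KO and about 1 above untreated in WT cells, so the silica difference over both genotypes was 0.08 ± 0.50 (adjusted p = 0.917). A fainter Cdkn1a probe was likewise highest untreated in Ccr2KO and lowest untreated in WT cells, at 0.54, -0.17 and -0.26 in Ccr2KO cells and -3.67, 0.30 and -0.10 in WT cells. The silica response in Ccr2KO minus that in WT was -2.03 ± 0.23 by the brighter probe (unadjusted p = 0.00111, adjusted p = 1). The 2 untreated arrays decided the value over both genotypes, which was 1.097 without Ccr2KO untreated (adjusted p = 0.0393) and -0.93 without WT untreated (adjusted p = 0.0462). Myc, a growth factor target gene that promotes entry into the cycle, was at 0.81, 0.62 and 1.11 in Ccr2KO cells and at -0.22, 0.91 and 1.21 in WT cells, with the WT untreated array lowest here too and a silica difference of 0.67 ± 0.32 (adjusted p = 0.204).

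**Figure D5:**
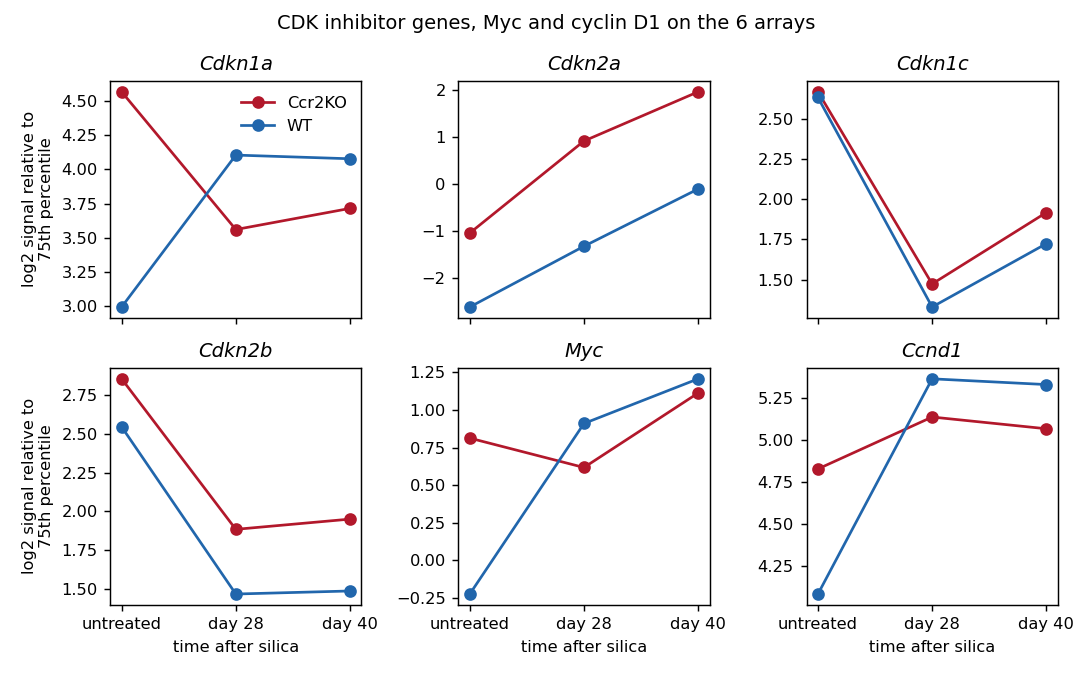
Levels of 4 CDK inhibitor genes, Myc and cyclin D1 on each array, log2 scale over the 75th percentile of the array, with 1 array per point. Cdkn1a was at 4.57 in untreated and 3.56 in day 28 Ccr2KO cells, and at 2.99 and 4.10 in WT cells; Cdkn2a was higher in Ccr2KO on all 3 days.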

How the data were processed

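RNA of CD45-negative lung cells was pooled from 3 biological replicates per group, per the labels, and hybridised to one-colour Agilent arrays (design 028005), 6 arrays on 1 slide. Per the file headers, the deposited intensity (gProcessedSignal) was background-subtracted and detrended by Feature Extraction 11.0.1.1. The authors' deposited log2 table holds 30574 of the probes, with the same values where a probe had 1 spot and no outlier (largest difference 5e-09), with R 2.15.1 named in the submitters' processing notes.

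Control spots were removed (59305 of 62976 spots kept), outlier spots (109 to 195 per array) set to missing, and each array's 75th percentile subtracted on the log2 scale. It was a signal of 969, 975 and 793 in Ccr2KO and 1179, 1159 and 878 in WT cells (untreated, day 28, day 40), and the number of arrays limits the precision. RefSeq names gave 27509 of 55681 probes 1 symbol (GRCm38.p6). The brightest probe stood for a gene. Genes were tested in R 4.3.3 with limma 3.58.1, with Benjamini-Hochberg adjustment over 16420 genes. Day and genotype were additive (2 residual degrees of freedom, prior 2.22), and the difference of responses came from a fit of genotype by silica (prior 1.87). The members, their roles and the lists were chosen with earlier results of these data known. All measured members are named, with the 4 largest calls of each further list. Of the brakes, levels were given for those that passed and for Cdkn1a, and of the other G1 genes for Myc, both chosen after their values were seen.

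Alternatives were normexp (offset 50, on the median spot and background signals, since the mean is not in the files as read), quantile normalization, the authors' table, other filters, the mean of probes, another variance prior, slide row, each array left out and another model of time. The fits were tested on simulated data. The Ccr2 probe read lower in Ccr2KO on all 3 days (-3.33 ± 0.66, adjusted p = 0.414). The sources used here do not place it relative to the deletion.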

Additional observations from a re-analysis of the deposited data

Results flagged for a closer look

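In 5 genes both silica arrays moved one way in Ccr2KO cells and the other way in WT cells, relative to the untreated array of the genotype. Cdkn1a, the p21 gene, was at -1.01 on day 28 and -0.85 on day 40 in Ccr2KO cells, and at 1.11 and 1.08 in WT cells (log2 differences). Its difference of responses was -2.03 ± 0.23 (unadjusted p = 0.00111, adjusted p = 1 over all genes). Ccnd3, the cyclin D3 gene, was at -0.22 and -0.44 in Ccr2KO cells and at 0.35 and 0.15 in WT cells (difference -0.58 ± 0.28, unadjusted p = 0.113). Cdkn2d, the p19INK4D gene, was at -0.12 and -0.28 in Ccr2KO cells and at 0.168 and 0.0397 in WT cells (difference -0.30 ± 0.25, unadjusted p = 0.294). Rbl1, which encodes p107, was at 0.266 and 0.0523 in Ccr2KO cells and at -0.16 and -0.24 in WT cells (difference 0.36 ± 0.25, unadjusted p = 0.232). Pcna was at -0.0699 and -0.128 in Ccr2KO cells and at 0.116 and 0.0377 in WT cells (difference -0.18 ± 0.22, unadjusted p = 0.47). The adjusted p was 1 for each of the 5, in limma's fit of genotype by silica. In all 5 both silica arrays of a genotype share its untreated array.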

How the results depend on the processing

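No paired analysis was possible because each group has 1 array. With the slide row as a block, 0 members passed for silica, for day 28, for day 40 and for day 40 against day 28, with 1 residual degree of freedom, and the mitotic medians were 2.05, 2.19 and 1.91 and the S phase median on day 40 was 0.59. Normexp gave mitotic medians of 1.47 (silica), 1.62 (day 28) and 1.32 (day 40). Day 40 against day 28 had 2 members lower with normexp, 0 with quantile normalization and 0 without a filter. Leaving out each array, the members called ranged from 0 to 33 for silica, 0 to 34 for day 28, 0 to 28 for day 40 and 0 to 0 for day 40 against day 28. The mitotic medians then ranged from 1.59 to 1.995 (silica), 1.72 to 2.19 (day 28), 1.41 to 1.85 (day 40) and -0.53 to -0.11 (day 40 against day 28), and the S phase silica median from 0.48 to 0.74. The sign of the silica difference turned in 9 genes, none of them called with all 6 arrays. With each array left out the differences ranged from -0.0989 to 0.077 for Pcna, -0.0598 to 0.58 for Ccnd2, -0.0656 to 0.26 for Bub1, -0.93 to 1.097 for Cdkn1a, -0.20 to 0.089 for Cdkn2c, -0.20 to 0.10 for Cdkn2d, -0.20 to 0.16 for Rbl1, -0.27 to 0.13 for Wee1 and -0.33 to 0.25 for Ccnd3. With the slide row they were -0.061 for Ccnd2, -0.78 for Cdkn1a, 0.19 for Rbl1 and 0.53 for Wee1, and with the mean of probes 0.0247 for Rbl1. Cdkn1a passed in 2 of these fits, without Ccr2KO untreated (1.097, adjusted p = 0.0393) and without WT untreated (-0.93, adjusted p = 0.0462). The causes were not tested.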
